A study of Mus musculus with 8 samples.

Results

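Native Nanog was compared with native Oct4, each profiled by CUT&Tag in 1 library from mouse fibroblasts of embryonic origin (MEFs) that had been reprogrammed until day 3. The 2 libraries held 128259 of the 661009 peaks of the series, 73465 for Nanog and 54794 for Oct4. All peaks of both libraries entered, ranked within each list by the peak score, and peaks that overlapped by at least 1 bp were merged into shared, Nanog only and Oct4 only regions. The same classes were also formed from the 20000 peaks of highest score in each list.

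In CUT&Tag an antibody brings the transposase Tn5 to a protein on chromatin, and the DNA around it is cut and sequenced. Here the antibody recognised the Flag tag, so the tagged factor that was delivered was mapped, not an endogenous protein. The study's cells are MEFs from embryos with an Oct4-GFP reporter, infected with retroviruses that carry the factors. The other 6 libraries held native Sox2, native Nr5a2 and the fusions NanogBiD, Oct4BiD, Sox2BiD and Nr5a2BiD, in which BiD is a domain that binds the BAF chromatin remodelling complex. The library titles name 1 factor each and leave any co-delivered factors unstated, so that differences between Nanog and Oct4 and differences between their factor combinations cannot be told apart. With 1 library per factor no difference was tested, and intervals (exact 95% binomial, unless stated) cover counting over peaks only. Read depth is not held in the peak files.

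Nanog is a homeodomain protein and Oct4, the product of Pou5f1, a POU protein. Both belong to the core of the pluripotency network, where they bind many of the same enhancers of embryonic stem cells. Oct4 contacts DNA with the POU-specific domain and the POU homeodomain, each of which reads one part of the octamer ATGCAAAT, and POU proteins can also bind as dimers on sites built from repeated parts. In fibroblasts, active enhancers commonly hold sites for AP-1 (FOS and JUN proteins), TEAD and RUNX factors.

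The sequences below show what the summits of the 3 classes looked like. Each is the mm10 plus strand, 50 bp either side of the summit, or of both summits in shared regions, read from the reference genome, with the named word in capitals on the strand where it fell. First come the Nanog only peaks of highest score among the sequences printed here whose window held GCCATTA, a form of the site reported for NANOG (scores of 803.53 and 792.15, ranks 194 and 216 of the Nanog list). The first lay between genes and the second in an intron of Snd1, a staphylococcal nuclease domain protein.
Nanog only, nearest gene Slc39a10, chr1:47398653-47398753: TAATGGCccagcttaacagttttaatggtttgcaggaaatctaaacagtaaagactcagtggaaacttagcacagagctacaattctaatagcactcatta
Nanog only, Snd1 intron, chr6:28628787-28628887: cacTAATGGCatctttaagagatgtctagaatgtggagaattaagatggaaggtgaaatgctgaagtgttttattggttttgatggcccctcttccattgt
The Oct4 only peaks of highest score with the octamer lay in introns, the first of Ngly1, which encodes a cytoplasmic deglycosylating enzyme (scores of 918.69 and 750.64, ranks 35 and 149 of the Oct4 list).
Oct4 only, Ngly1 intron, chr14:16289214-16289314: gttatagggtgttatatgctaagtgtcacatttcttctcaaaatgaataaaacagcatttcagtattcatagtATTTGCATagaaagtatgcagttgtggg
Oct4 only, nearest gene Poteg, chr8:27595703-27595803: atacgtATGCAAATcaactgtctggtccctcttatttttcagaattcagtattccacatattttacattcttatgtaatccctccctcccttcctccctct
Words related to the octamer were found at Oct4 only summits of still higher score. They are given here because these words returned genome wide (they were chosen after the values were seen). The first, in an intron of the collagen gene Col5a2, had a score of 1116.33 and rank 5. The second, 13549 bp from the start of Scarb2, had 1092.82 and rank 8. The third, 1498979 bp from a start of its nearest gene Kcnt2, had 957.96 and rank 26.
Oct4 only, ATGCGCAT, chr1:45443345-45443445: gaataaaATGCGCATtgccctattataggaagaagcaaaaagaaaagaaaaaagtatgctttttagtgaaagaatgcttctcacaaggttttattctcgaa
Oct4 only, ATGCATAT, chr5:92520332-92520432: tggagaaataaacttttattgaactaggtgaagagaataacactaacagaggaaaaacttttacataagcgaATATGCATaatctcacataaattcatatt
Oct4 only, ATGCACAT, chr1:142011885-142011985: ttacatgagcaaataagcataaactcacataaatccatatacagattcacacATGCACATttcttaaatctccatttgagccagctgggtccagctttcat
The shared regions shown were chosen for a word in the windows of both summits, so its closeness to the summits is fixed by that choice. An octamer lay in the windows of both summits, 4 bp apart, in a region nearest to Nr2f2, which encodes an orphan nuclear receptor (scores of 536.26 for Nanog and 476.17 for Oct4). In an intron of the sugar transporter gene Slc2a13, the summits were 18 bp apart (925.04 and 572.32) and the NANOG word followed the AP-1 word TGAGTCA. In a region nearest to Akr1e1 the summits were 2 bp apart (858.95 and 608.73), both just past the end of the AP-1 word TGACTCA.
Shared, octamer, chr7:70037192-70037296: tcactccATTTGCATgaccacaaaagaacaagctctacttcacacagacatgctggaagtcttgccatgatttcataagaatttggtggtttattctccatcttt
Shared, NANOG word, chr15:91457079-91457197: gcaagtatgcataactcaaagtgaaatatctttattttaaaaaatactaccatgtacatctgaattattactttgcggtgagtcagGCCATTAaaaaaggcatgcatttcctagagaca
Shared, AP-1 word, chr13:4771619-4771721: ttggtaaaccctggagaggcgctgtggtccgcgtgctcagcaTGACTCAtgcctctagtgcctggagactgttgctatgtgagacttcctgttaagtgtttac

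Most binding was not shared. The 108208 merged regions fell into 19553 shared (18.1%), 53762 Nanog only (49.7%) and 34893 Oct4 only (32.2%). A Nanog peak overlapped an Oct4 peak in 26.8% of cases (95% CI 26.5 to 27.1), and an Oct4 peak overlapped a Nanog peak in 36.3% (35.9 to 36.7). From the top 20000 peaks of each list 34932 regions formed, of which 5057 (14.5%) were shared, 14943 Nanog only and 14932 Oct4 only. Of the top 20000 Nanog only peaks, 27.8% did have an Oct4 peak of lower rank, and of the Oct4 only peaks 25.1% had a Nanog peak of lower rank. The lists do not reach the same score at that rank: the last peak kept scored 210.63 in Nanog and 137.02 in Oct4, and the next peaks scored the same.

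The strongest peaks of each factor were mostly found in the other list, but seldom among its strongest. Of the 1000 Nanog peaks of highest score, 66.5% (63.5 to 69.4) overlapped some Oct4 peak, and of the 1000 highest Oct4 peaks 54.6% (51.5 to 57.7) overlapped some Nanog peak. Only 66 of these overlapped between the 2 sets of 1000 (6.6%). The share found in the other list fell through all rank bins, to 12.5% of the Nanog peaks from rank 60001 on and to 25.7% of the Oct4 peaks from rank 50001 on. Over the 19553 shared regions the ranks of the 2 scores correlated weakly (Spearman's rho 0.236, a description across regions, which are not replicates and share accessibility and mappability). Peaks in shared regions scored higher than the others, with medians of 197.55 against 109.18 in Nanog and 121.65 against 97.79 in Oct4. They were also wider, 1110 against 771.5 bp in Nanog and 859 against 747 bp in Oct4, and a wider peak has more chance to overlap, a part that was not tested here.

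**Figure D1:**
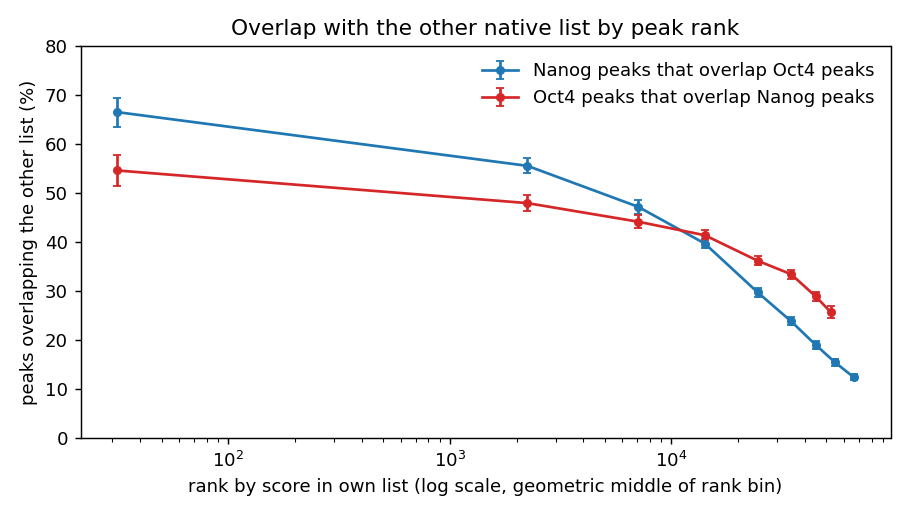
Share of peaks that overlap a peak of the other native list (y axis, percent) by rank of the score in the own list (x axis, log scale, geometric middle of each rank bin), with exact 95% binomial intervals over peaks. Both curves fall with rank, from 66.5% to 12.5% for Nanog and from 54.6% to 25.7% for Oct4.

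Shared regions lay at promoters far more often than regions of 1 factor. A summit within 2 kb of an annotated transcript start was found for 38.5% (37.8 to 39.2) of Nanog peaks and 38.7% (38.0 to 39.4) of Oct4 peaks in shared regions. The share was 15.5% (15.2 to 15.8) for Nanog only and 10.8% (10.5 to 11.1) for Oct4 only peaks, and 10.9% of the genome lies within that distance. The contrast was sharpest next to the start: 31.5% of the peaks of either factor in shared regions lay within 500 bp, against 7.72% of Nanog only and 3.18% of Oct4 only peaks. From 500 bp to 2 kb the 4 sets held alike shares, between 6.99% and 7.80%. The median distance to a start was 6.30 kb for Nanog and 6.19 kb for Oct4 peaks in shared regions, 13.5 kb for Nanog only and 15.7 kb for Oct4 only peaks. In the top 20000 lists the order was the same, with 46.9% and 46.8% at promoters in shared regions, 19.2% for Nanog only and 13.6% for Oct4 only peaks.

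**Figure D2:**
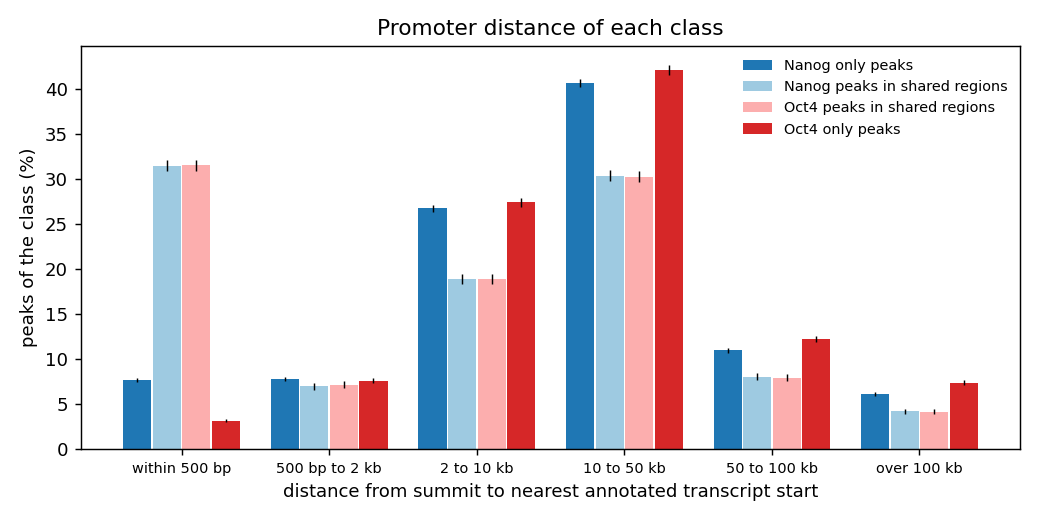
Share of peaks (y axis, percent) by distance from the summit to the nearest annotated transcript start (x axis), for Nanog only and Oct4 only peaks and for the peaks of each factor in shared regions. Bars are shares with exact 95% binomial intervals. The shared peaks stand out within 500 bp (31.5% for both factors) and are below the others from 2 kb on.

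The classes also differed in base composition. Median GC content of the summit windows was 48.5% and 47.5% for Nanog and Oct4 peaks in shared regions, 44.6% for Nanog only and 40.6% for Oct4 only peaks. The mean number of CpG per window was 3.25 and 3.40 in shared regions, 1.41 in Nanog only and 0.921 in Oct4 only peaks. Introns held 42.1% of the shared summits of each factor, 49.3% of Nanog only and 52.05% of Oct4 only summits, and untranslated regions held 8.89% and 9.36%, 2.68% and 1.63%. The nearest summit of the other factor was at a median of 12.5 kb from a Nanog only and 10.4 kb from an Oct4 only summit, and within 5 kb for 21.6% and 27.8%. Shares within 1 kb, 1.11% and 1.59%, are held low by the classes themselves, whose peaks do not overlap.

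Within shared regions the summits were close but farther apart than those of a native factor and its BiD fusion. The smallest distance between a Nanog and an Oct4 summit had a median of 84 bp (quartiles 31 and 214), and 55.05% (54.3 to 55.7) were within 100 bp. By comparison, native Nanog and NanogBiD summits had a median of 47 bp (73.5% within 100 bp) and native Oct4 and Oct4BiD summits 45 bp (74.4%). Each pair was measured over its own shared regions, 52689 and 39604 for these pairs against 19553 for Nanog with Oct4. NanogBiD against Oct4BiD gave 113 bp (47.0%). In the top 20000 lists the medians were 75 bp for Nanog with Oct4, 41 bp for Nanog with NanogBiD and 36 bp for Oct4 with Oct4BiD. Spacing was closer at promoters, with a median of 69 bp, than in distal regions, with 96 bp. No test was possible on any of these.

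**Figure D3:**
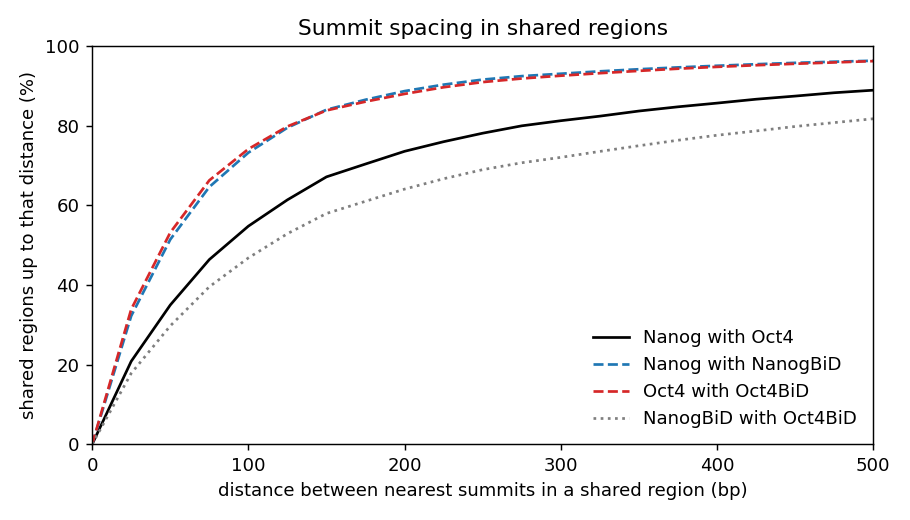
Cumulative share of shared regions (y axis, percent) by distance between the nearest summits of 2 libraries (x axis, bp), counted in steps of 25 bp. The curve of Nanog with Oct4 lies below those of each native factor with its own BiD fusion and above that of NanogBiD with Oct4BiD, with 55.05%, 73.5%, 74.4% and 47.0% of regions within 100 bp.

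Sequence was not used to form the classes. Matches on either strand were counted in the 101 bp around each summit and in windows of the same length centred 500 bp to either side, and the ratio of the shares is given with an interval from the counts. The octamer ATGCAAAT was found at 4.99% of Oct4 only summits against 0.755% of flanks, a ratio of 6.60 (5.99 to 7.28). At Oct4 summits in shared regions the ratio was 5.06 (4.32 to 5.92), at Nanog summits in the same regions 1.83 (1.54 to 2.18), and at Nanog only summits 0.796 (0.689 to 0.918). From the top 20000 lists the Nanog only ratio was 1.13 (0.879 to 1.45), in a class that also holds peaks with an Oct4 peak of lower rank. Nanog only peaks of the full list that ranked in the top 20000 had 0.991 (0.720 to 1.37). Both intervals include equal shares, so the octamer was below the flanks over the full list and not clearly so at high scores. The NANOG word GCCATTA showed the reverse order at lower ratios. It was 2.13 (1.95 to 2.33) at Nanog only summits (1.88% of windows), 1.43 (1.21 to 1.69) at Nanog summits in shared regions, 0.954 (0.789 to 1.15) at Oct4 summits there and 0.998 (0.870 to 1.15) at Oct4 only summits. The SOX word CCATTGTT had ratios of 0.730 to 0.993 over all peaks, and of 1.21 and 1.04 for Nanog and Oct4 peaks of shared regions in the top 20000 lists, with intervals that include equal shares. It was below the flanks at Oct4 only summits (0.730, 0.578 to 0.922).

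Words of the fibroblast enhancer factors were most frequent at Nanog summits. The AP-1 word TGACTCA was in 11.0% of Nanog only windows (ratio 6.13, 5.82 to 6.45), 8.03% of Nanog windows in shared regions (5.41, 4.92 to 5.95), 6.64% of Oct4 windows in shared regions (3.68, 3.36 to 4.03) and 3.37% of Oct4 only windows (2.14, 1.97 to 2.33). RUNX (AACCACA) fell in the same order, from 3.61 to 2.61, 1.69 and 1.46, and so did TEAD (CATTCCA or CATTCCT), from 3.20 to 2.82, 2.50 and 1.78. The motif of CTCF, an architectural protein, was rare, with ratios of 5.18, 3.69, 3.41 and 1.90 over all peaks. In the top 20000 lists they lay between 0.889 (Oct4 only) and 2.29 (Oct4 in shared regions), with intervals that all include equal shares. The SP/KLF box GGGCGGG, common in CpG-rich promoters, marked shared regions instead: it was in 8.39% of Nanog and 9.43% of Oct4 windows there, against 1.41% of Nanog only and 0.619% of Oct4 only windows. Within promoters of shared regions it reached 20.1% and 22.4%, and AP-1 was at 3.17% and 2.78%. In distal shared regions AP-1 was at 11.1% of Nanog and 9.08% of Oct4 windows, and the SP/KLF box at 1.06% and 1.22%.

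**Figure D4:**
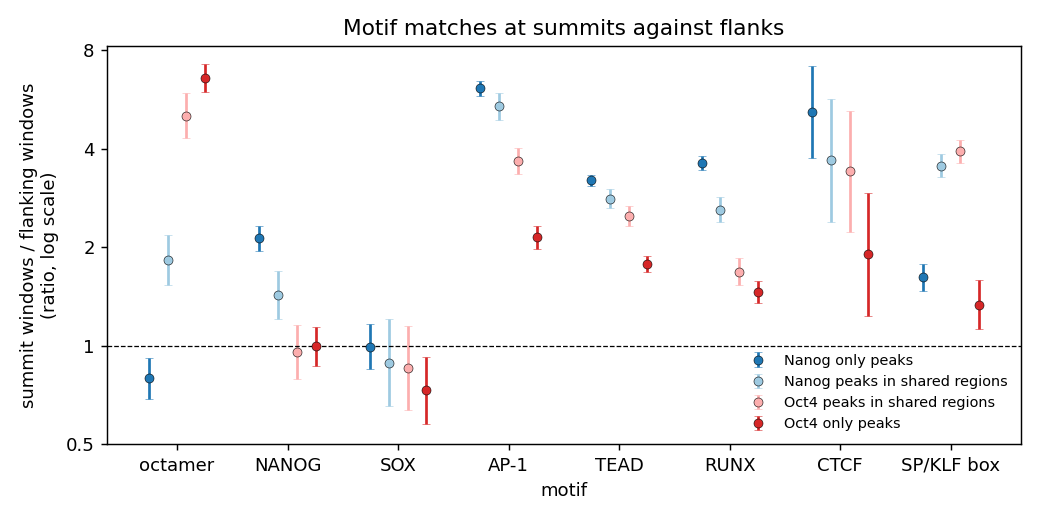
Ratio of the share of summit windows with a motif to the share of flanking windows (y axis, log scale, with 95% intervals from the counts) for 8 motifs (x axis) in the 4 sets of peaks. The dashed line marks equal shares. The octamer rises from Nanog only (0.796) to Oct4 only (6.60), and AP-1, TEAD and RUNX fall in that direction.

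In shared regions with a single match, the Oct4 summit was more often the nearer one to the octamer. The Nanog summit was more often nearer to AP-1, TEAD, RUNX, SOX and NANOG words, by smaller margins. In 2004 regions with 1 octamer the Oct4 summit was at a median of 183.5 bp and the Nanog summit at 309.5 bp from it, and the Oct4 summit was the nearer in 65.1% (62.9 to 67.2). In 5149 regions with 1 AP-1 word the Nanog summit was at 161 bp and the Oct4 summit at 222 bp, with Nanog nearer in 55.6% (54.2 to 56.9). For RUNX Nanog was nearer in 53.8% (52.4 to 55.2) of 4781 regions, and for TEAD in 52.7% (51.4 to 53.9) of 6149. For the NANOG word Nanog was nearer in 52.1% (49.9 to 54.3) of 2018 regions, an interval that just includes 50%. Oct4 was nearer in 46.8% (44.6 to 49.0) of these regions, and 22 were ties. For the SOX word Nanog was nearer in 54.3% (51.0 to 57.5) of 951 regions, with medians of 364.5 bp for Nanog and 375.5 bp for Oct4. This word was not enriched at either summit in shared regions (0.889 and 0.855), so 50% is not a secure baseline here. The shares for RUNX, TEAD and NANOG words were no higher than that of SOX, and the AP-1 interval includes it. Nanog peaks in shared regions were also wider (1110 against 859 bp), and the part of width was not tested.

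The octamer was not the most enriched word at Oct4 only summits. All 8-letter words seen in at least 100 summit windows were ranked by their ratio to the flanks, and the first at Oct4 only summits was the palindrome ATGCGCAT. It was in 495 windows (1.42%) against 0.0287% of flanks, a ratio of 49.5 (31.7 to 77.4). Among the words ATGCNNAT, the commonest were ATGCACAT, in 11.5% of Oct4 only windows (ratio 11.1), and ATGCATAT, in 8.75% (ratio 9.77). At least 1 of these 3 or the octamer was in 23.3% of Oct4 only windows and 2.62% of flanks, a ratio of 8.90. The same set was in 8.02% of Oct4 windows (4.68) and 2.92% of Nanog windows (1.39) of shared regions, and in 1.24% of Nanog only windows (0.670). The MORE palindrome ATGCATATGCAT, a site on which POU proteins are known to bind as dimers, was in 112 Oct4 only windows (0.321%) against 0.0172% of flanks (ratio 18.7, 10.3 to 33.9), in 11 Oct4 windows and 1 Nanog window of shared regions, and in 0 of 53758 Nanog only windows, which allows a share of up to 0.00558%. The composite TTGTNATGCAAAT, the adjacent sox and octamer sites of stem cell enhancers, was rare, in 7 of 34881 Oct4 only and 3 of 19897 shared Oct4 windows.

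Within the Oct4 only windows in which they were chosen, these words were found at promoters, away from them and at high scores. Those sets are parts of the windows that gave the choice, so they are no separate check of it. The 4 words together were in 19.5% of promoter and 23.8% of distal Oct4 only windows, and in 27.9% of those Oct4 only peaks that ranked in the top 20000. The share with the octamer itself fell from 6.91% in the 6974 Oct4 only peaks of highest score to 3.90% in the 6974 of lowest, and the share of Nanog only peaks with GCCATTA fell from 2.23% in the 10751 of highest to 1.72% in the 10752 of lowest score. Libraries that did not form the classes gave the same contrast. Among Oct4BiD peaks that overlapped neither native list, the 4 words were in 21.7% of windows (ratio 10.9), whereas they were in 1.46% (0.808) of such NanogBiD peaks and in 0.891% to 1.54% of those of Sox2, Sox2BiD, Nr5a2 and Nr5a2BiD. The make-up of the set differed between the Oct4 libraries: in these Oct4BiD peaks the octamer was at 12.8% and ATGCACAT at 2.98%, against 4.99% and 11.5% in native Oct4 only peaks.

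A part of the Oct4 only summits lay in long stretches where purines and pyrimidines alternate, more often than their flanks. The longest such run had a median of 8 bases in Oct4 only windows and 6 in their flanks. Alternation is the pattern of ATGCACAT, ATGCATAT and ATGCGCAT and of TG and CA repeats. Whether these words are Oct4 sites or came with such stretches was not tested. An alternating run of at least 16 bases was in 21.4% of Oct4 only windows and 4.40% of their flanks, a ratio of 4.86 (4.66 to 5.06). It was in 4.95% of Oct4 windows in shared regions (1.57, 1.44 to 1.71). Nanog summits held such runs less often than their flanks, with 0.692% of Nanog only windows against 3.33% of flanks (0.208, 0.187 to 0.232) and 1.11% against 3.63% in shared regions (0.305). In Oct4BiD peaks outside both native lists the share was 8.35% (ratio 2.44), and in those of the other 5 libraries 0.676% to 1.34%. Reads in repeats can be placed less surely than others, and the part of mapping in these shares was not tested. Oct4 only peaks with an octamer overlapped an Oct4BiD peak in 86.9% (85.2 to 88.4) of cases, against 66.4% of those without it. The shares with and without the word were 75.4% and 67.3% for ATGCGCAT, 69.4% and 67.2% for ATGCATAT, and 57.1% and 68.7% for ATGCACAT, the one word with the lower share. For any of the 4 words they were 68.0% and 67.2%.

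At Nanog only summits all 4 leading words were AP-1 sites with 1 more base, from ATGAGTCA (3.59% of windows, ratio 8.58) to GTGACTCA (3.55%, 7.44), followed by the RUNX word AACCACAA (3.06%, 5.85). At Nanog summits in shared regions CGCATGCG, the centre of the NRF1 site, came first (105 windows, ratio 11.7), followed by the same AP-1 words. At Oct4 summits in shared regions CATGCGCA (241 windows, 9.09) came first, and the cyclic AMP response element TGACGTCA was the fourth (113 windows, 7.06). CGCATGCG, which shares the bases CATGCG with the first word, was also among the leading words there (115 windows, 6.39).

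The classes recurred differently in the other 6 libraries. Shared regions held a NanogBiD peak in 85.2% (84.7 to 85.7) and an Oct4BiD peak in 83.7% (83.2 to 84.2) of cases. Nanog only regions held a NanogBiD peak in 68.2% (67.8 to 68.6) and an Oct4BiD peak in 17.4%, and Oct4 only regions held an Oct4BiD peak in 67.4% (66.9 to 67.9) and a NanogBiD peak in 5.81%. Nanog only regions were also found more often than Oct4 only regions in every library of another factor. The shares were 41.4% against 14.9% in Sox2BiD, the longest list (120594 peaks), and 24.0% against 7.76% in Sox2. In Nr5a2 they were 25.9% against 10.7%, and in Nr5a2BiD 24.3% against 8.55%. A peak in all 6 other libraries was found for 21.6% of shared, 1.24% of Nanog only and 0.115% of Oct4 only regions, and a peak in none of them for 1.92%, 15.2% and 25.7%. With the top 20000 lists 95.4% of Nanog only regions had a NanogBiD peak and 89.0% of Oct4 only regions an Oct4BiD peak.

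**Figure D5:**
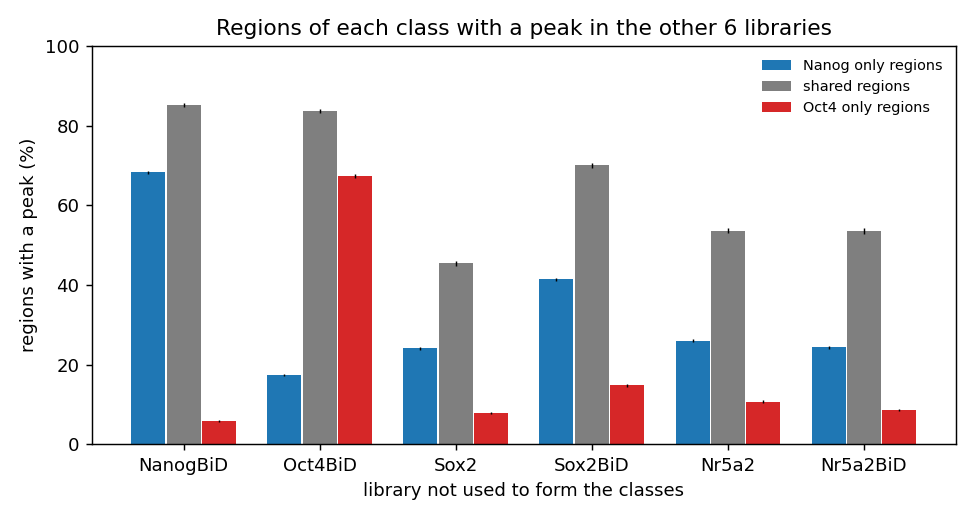
Share of regions with a peak (y axis, percent, exact 95% binomial intervals) in each of the 6 libraries that did not form the classes (x axis). Nanog only and Oct4 only regions recur in the BiD fusion of their own factor (68.2% and 67.4%), and shared regions recur in both (85.2% and 83.7%).

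The shared regions with the highest scores in both lists lay at or between genes of several kinds. The first, chr5:136402372-136404585 in an intron of Cux1, a homeodomain repressor gene, scored 1299.16 in Nanog (rank 2) and 1060.82 in Oct4 (rank 11). Its summits were 75 bp apart. The second lay 299 bp from a start of the zinc finger gene Zbtb20, on chromosome 16 (1014.42 and 1076.17), with both summits at the same base. The third, chr17:39842919-39848895, over the annotated genes CT010467.1 and Gm42418, scored 1276.24 and 923.47 with summits 4189 bp apart. Gm42418 holds ribosomal RNA sequence, which is present in many copies. Next came regions in an intron of Ppp2r3d (931.23 and 1584.24), near Lactb, where the summits were 1 bp apart (914.16 and 963.86), in an intron of Arhgap24 (888.94 and 977.12), near Gm17555 and near Pja2. The first 4 had a peak in all 6 other libraries, and the other 4 had one in all but Nr5a2 and Nr5a2BiD.

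The highest Nanog only regions were in an intron of 1700012B07Rik (1190.83, rank 5), near Med13, a Mediator subunit gene (1104.10), and at Scd3, which encodes a stearoyl-CoA desaturase (1099.90). Next came regions in an intron of R3hcc1l (1070.25), 151685 bp from a start of the corepressor gene Tle1 (1063.51) and in an intron of Dpysl3 (1035.61). After them came regions 135235 bp from a start of Gm5447 (1016.56) and in an intron of March1 (989.62). All 8 had a NanogBiD and a Sox2 peak, and none had an Oct4BiD peak. The highest Oct4 only regions were near Prrc2c (1270.67, rank 3), in an intron of Col5a2 (1116.33), near Scarb2 (1092.82), near the homeobox gene Irx1 (967.39) and near Cd48 (959.51). The next had Kcnt2 as its nearest gene, but lay 1498979 bp from a start of it (957.96). It was followed by regions in an intron of Ngly1 (918.69) and 164 bp from a start of the POU gene Pou6f1 (884.52). All 8 had an Oct4BiD peak, and 1, near Prrc2c, had a NanogBiD peak. These regions recurred in the BiD library of the own factor and, with that exception, not in that of the other.

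Some genes gathered many regions of the top 20000 lists. Zfp608 had the highest count as nearest protein-coding gene in the shared class (15 of 5055 regions) and in the Nanog only class (24 of 14942), and Oct4 only regions near it numbered 15. Next in the shared class were Dnm3, a dynamin gene (9), N6amt1 (9), the phosphodiesterase gene Pde4d (8) and Cdk14 (7), and in the Nanog only class Pde4d (23), Efna5, an ephrin gene (20), the cadherin gene Cdh11 (19) and Cited2 (19), which encodes a transcriptional coregulator. Cited2 was nearest to 7 Oct4 only regions. Oct4 only regions were nearest most often to Adgrl3 (21), Cdh8 (21), Flrt2 (21), Macrod2 (20) and Tenm4 (20), genes of cell adhesion receptors apart from Macrod2. Nanog only regions near them numbered 18 at Adgrl3, 15 at Flrt2, 13 at Tenm4, 8 at Macrod2 and 5 at Cdh8, another cadherin gene, which had no shared one. Several of these genes are long, 1503.51 kb for Pde4d and 1997.66 kb for Macrod2, and counts were not scaled by length.

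Over 21911 protein-coding genes, 35.1% had a promoter summit of both factors within 2 kb of a start, 16.2% of Nanog and not Oct4 and 3.93% of Oct4 and not Nanog. From the top 20000 lists these were 12.2%, 9.52% and 5.44%. Within 100 kb of their starts, 62.0% had more Nanog only than Oct4 only summits and 20.0% more Oct4 only ones. Oct4 gave 42.3% of the summits counted gene by gene, where a summit near several genes counts once for each. Where genes of a list lie close together, such repeats make the interval of this share too narrow. The 6 gene lists below were read against these shares, with no test.

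Of 30 pluripotency network genes, 5 had a promoter summit of both (Klf2, Klf4, Klf5, Tbx3 and Fbxo15), 3 of Nanog alone (among them Dppa2 and Lefty2), 2 of Oct4 alone (Tdgf1 and Gdf3) and 20 of neither. Both factors together thus reached 16.7% of these promoters, against 35.1% of all genes. In the top 20000 lists 4 of the 30 had both, a share near the 12.2% of all genes, so the lower share was not seen there. In these lists 0 had Nanog alone and 2 had Oct4 alone, against 9.52% and 5.44% of all genes. Within 100 kb, 18 of the 30 had more Nanog only and 9 more Oct4 only summits, against 62.0% and 20.0% of all genes. Oct4 gave 47.1% (41.1 to 53.2) of the summits counted gene by gene (131 of 278), an interval that includes the 42.3% over all genes. Neighbouring genes of this list, such as Lefty1 and Lefty2, share summits, so the interval is too narrow. The strongest of the promoter peaks in 1 library was the Oct4 peak 263 bp from a start of Tdgf1, a Nodal coreceptor gene (score 559.91, rank 745). The Oct4 peak at Gdf3, a TGF-beta family ligand, scored 204.22, and the Nanog peaks at Dppa2 and Lefty2 scored 50.18 and 57.33, near the lowest score of the list, 50. The largest differences near single genes were 4 summits: Lefty1 had 10 Nanog only and 6 Oct4 only, Lin28a 6 and 2, Pou5f1 6 and 2, and Tfcp2l1 1 and 5. Prdm14, with 4 and 0, tied with them and was left out by the rule for ties. The highest peak around Lefty1, an antagonist of Nodal, was nevertheless an Oct4 only one at 21866 bp (518.80, rank 1039).

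At the Nanog gene itself (chr6:122707489-122714633, plus strand) neither library had a promoter summit. A shared peak lay 4818 bp upstream, with scores of 393.31 in Nanog and 151.33 in Oct4 and summits 1 bp apart. Its window, shown because the summits coincide at a locus of the network (chosen after its values were seen), held a TEAD word and none of the octamer, NANOG or SOX words.
Nanog upstream, TEAD word in capitals, chr6:122702621-122702722: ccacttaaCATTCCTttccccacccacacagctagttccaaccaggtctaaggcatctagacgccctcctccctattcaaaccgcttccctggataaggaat
An Oct4 only peak lay farther upstream, at 31107 bp (351.93, rank 3647). The Nanog library also had 2 summits on exons of Nanog, the higher with 57 tags in a coding exon, NanogBiD had 2 of up to 47 tags, and Oct4BiD had 1 of 22 tags. Native Oct4 had none there, and no library had a summit in Pou5f1. Sox2 likewise had an exon summit in native Sox2 (63 tags) and Sox2BiD (53 tags) alone. The delivered vectors carry coding sequence of their factor, and its part in these exon summits was not tested. Near Sox2 the native Nanog and Oct4 libraries had 3 and 2 summits within 100 kb, none at the promoter and none shared. Around Pou5f1 the strongest peak was shared, at 82016 bp, with a Nanog score of 613.45 and an Oct4 score of 209.08.

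Over the full lists, promoter summits of both factors were more frequent at genes of the starting cells than over all genes. Of 31 mesenchymal and extracellular matrix genes, 21 had promoter summits of both, 9 of Nanog alone, 1 of Oct4 alone (Thbs1, a matrix glycoprotein) and 0 of neither. Over all genes the shares with both, Nanog alone and Oct4 alone were 35.1%, 16.2% and 3.93%. Within 100 kb, 27 of the 31 had more Nanog only summits, against 62.0% of all genes. The largest differences were at Cd44, a hyaluronan receptor gene (21 Nanog only and 6 Oct4 only), Zeb2 (17 and 3) and Zeb1 (14 and 4), repressors of epithelial genes, and Cdh2, N-cadherin (16 and 7). In the top 20000 lists the promoters of this list were split in another way. Of the 31, 4 had both (a share near the 12.2% of all genes), 4 Nanog alone and 9 Oct4 alone. Over all genes 9.52% had Nanog alone and 5.44% Oct4 alone. Those with Oct4 alone included Thy1, Col3a1, Twist1 and Prrx1.

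A further list held 26 genes of AP-1, TEAD and RUNX factors with cofactors and targets such as Yap1 and Ccn2. Of these, 18 had promoter summits of both, 4 of Nanog alone, 0 of Oct4 alone and 4 of neither. The share with both was 69.2%, against 35.1% of all genes. In the top 20000 lists 7 of the 26 had both, against 12.2% of all genes. Bach2, a basic leucine zipper repressor gene, had 32 Nanog only and 6 Oct4 only summits within 100 kb, Runx1 20 and 6, Tead1 17 and 7 and Bach1 13 and 4. Of 26 epithelial genes, 3 had both (11.5%), 8 Nanog alone, 0 Oct4 alone and 15 neither. Over all genes 35.1% had both, 16.2% Nanog alone and 3.93% Oct4 alone. In the top 20000 lists 0 of the 26 had both, against 12.2% of all genes. Here Lamb1, a laminin chain gene, had 21 Nanog only and 2 Oct4 only summits, and Cdh1, E-cadherin, 11 and 4, with no promoter summit.

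Of 30 genes of LIF, TGF-beta, BMP and WNT signalling, 19 had promoter summits of both (63.3%, against 35.1% of all genes). Another 5 had one of Nanog alone, 2 of Oct4 alone (Bmp2 and Id3) and 4 of neither. Over all genes 16.2% had Nanog alone and 3.93% Oct4 alone. In the top 20000 lists 5 of the 30 had both, against 12.2% of all genes. The largest differences were at Smad3 (18 Nanog only and 7 Oct4 only), Stat3 (14 and 4), Id1 (14 and 4) and Tgfb2 (16 and 7). Of 34 lineage transcription factors, 7 had both (20.6%, against 35.1% of all genes), 4 Nanog alone, 1 Oct4 alone (Pax6) and 22 neither. In the top 20000 lists 3 of the 34 had both, against 12.2% of all genes. In this list 16 genes had more Nanog only and 15 more Oct4 only summits, the most even split of the 6 lists. Over all genes these shares were 62.0% and 20.0%. Oct4 gave 47.7% (42.2 to 53.3) of the summits counted gene by gene, an interval that includes the 42.3% over all genes. Sox11 (11 and 3), Hoxb9 (8 and 1), Gata4 (9 and 3) and Mixl1 (6 and 0) had more of Nanog. Outside the naming rule, and chosen after their values were seen, Tbx5 (0 and 6) and Sox1 (0 and 5) leaned the other way, Tbx5 by as many summits as Gata4 and Mixl1.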

How the data were processed

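MEFs carrying delivered, Flag-tagged factors were profiled by CUT&Tag, 1 library per factor. Per the labels and the methods, reads were trimmed by the authors (Trim Galore 0.6.4), aligned to mm10 (Bowtie2 2.4.5), filtered (SAMtools 1.16.1, mapping quality of at least 30) and passed to MACS 1.4.2 for peak calling (shift size 25, 1 tag kept per position, p threshold 1e-05). No control library was named. The deposited score of a peak is its MACS p as a negative log10, multiplied by 10, and the deposited signal is the height of the summit in tags. Neither was rescaled here, so scores depend on depth. The peak files hold no depth, and the read totals per library in the study's reporting notes were not used here. One source describes merged replicates and another a single run without biological replicates.

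Peaks were ranked by score, merged at an overlap of at least 1 bp and annotated with GENCODE M21 on GRCm38, with a promoter as a summit within 2 kb of a transcript start. Peaks off placed chromosomes (8 Nanog, 16 Oct4) were left out of annotation and motif counts. Motif letters were counted in summit windows and in flanks shifted by 500 bp. Intervals are exact binomial (95%), or on the log scale for ratios, and cover counting error only. Python 3.11.15, NumPy 2.4.6, pandas 2.3.3, SciPy 1.17.1 and matplotlib 3.10.9 were used, and scripts were tested on simulated data. Named regions are the 8 of highest score per class (for shared regions, by the lower of both score percentiles), the 5 genes with the highest counts as nearest gene of top 20000 regions per class, up to 4 genes per list with the largest difference in summits within 100 kb, pluripotency genes with a promoter peak in 1 library, and Nanog, Pou5f1 and Sox2. Members and lists were chosen with earlier results of these data known, and genes and words outside this rule were chosen after their values were seen. Alternatives changed the rank limit, score minimum, overlap rule, promoter width and window size. No test was run. Sequences on chromosome 18 were not printed, and 1 gene that the rule names is not reported here.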

Additional observations from a re-analysis of the deposited data

How the results depend on the processing

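None of the values in this paragraph changed direction, but most changed in size. Outside it, the octamer ratio at Nanog only summits crossed 1 in the top 20000 lists (0.796 to 1.13). In Nanog only peaks of the full list that ranked in the top 20000 it was 0.991. Ratios also crossed 1 for SOX in shared regions (0.889 to 1.21 for Nanog, 0.855 to 1.04 for Oct4) and for CTCF at Oct4 only summits (1.90 to 0.889). Mesenchymal promoters went from 9 with Nanog alone and 1 with Oct4 alone to 4 and 9. Pluripotency network promoters went from 3 and 2 to 0 and 2. The share of Nanog peaks that overlapped an Oct4 peak, 26.8%, was 25.3% with the top 20000 of each list, 22.3% at a score of at least 100, 31.5% with equal numbers of peaks, 19.5% when at least 50% of both peaks had to overlap and 14.7% for summits within 100 bp. The Oct4 share, 36.3%, was 25.3%, 34.5%, 32.1%, 26.1% and 19.6% under the same settings. Median summit spacing, 84 bp, was 75 bp in the top 20000 and 81 bp at a score of at least 100. Promoter shares with the top 20000, with 500 bp and with starts of protein-coding genes were 46.9%, 31.5% and 34.2% for Nanog peaks in shared regions, 19.2%, 7.72% and 11.1% for Nanog only, and 13.6%, 3.18% and 6.84% for Oct4 only peaks. The octamer ratio at Oct4 only summits was 7.68 in the top 20000 and 5.15 in windows of 100 bp either side, where the NANOG ratio was 1.89 and the AP-1 ratio at Nanog summits in shared regions 4.59. That AP-1 ratio was 6.24 with 25 bp either side. At Oct4 only summits the octamer ratio became 8.90 with any of the 4 octamer-like words and 5.24 with ATGCNNAT, both chosen after seeing the data. The share of Nanog only regions with a NanogBiD peak was 95.4% in the top 20000 and 63.4% at 50% overlap, and that of Oct4 only regions with an Oct4BiD peak 89.0% and 59.2%. The cause was not tested. No paired analysis was possible because each factor has 1 library and no test was run. Scores were not adjusted for depth, and its part in the peak numbers was not tested.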
